A study of Mus musculus with 12 samples.

Results

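The 10 genes described here encode the core of the VEGF and TIE signalling systems of endothelium and 2 endothelial junction proteins. They are *Vegfa*, *Kdr*, *Flt1* and *Nrp1* of the VEGF system, *Angpt1*, *Angpt2*, *Tek* and *Tie1* of the TIE system, and *Cdh5* and *Pecam1* of the junctions. They were taken by symbol, and all 10 were found among the 20368 genes of the deposited table. RNA-seq was made from embryonic hearts of the CD1 strain at embryonic day 11.5 (E11.5) and 12.5 (E12.5), with 3 libraries in each of 4 groups. Controls were *Mesp1Cre*;*Hira*+/fl, with 1 wild-type and 1 floxed allele of *Hira*. Mutants were *Mesp1Cre*;*Hira*-/fl, with 1 null and 1 floxed allele. All 12 libraries therefore come from hearts with *Mesp1Cre* and a floxed allele, and the mutants also lack 1 allele in every cell of the embryo. *Mesp1Cre* recombines in early cardiac mesoderm, which gives rise to heart muscle, endothelium, endocardium and epicardial derivatives, so cells outside that lineage keep a working *Hira* allele in both genotypes. HIRA is a chaperone that places the histone variant H3.3 into chromatin.

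VEGF-A is a secreted factor that binds the receptor tyrosine kinases KDR (VEGFR2), which carries most of the growth and survival signal in endothelial cells, and FLT1 (VEGFR1), which binds the ligand more tightly and signals weakly. Neuropilin 1 is a co-receptor that presents VEGF-A to KDR. Angiopoietin 1 activates the receptor TEK (TIE2), angiopoietin 2 acts on the same receptor as a context-dependent antagonist, and TIE1 is a related receptor with no well-established ligand that modulates TEK. In the embryonic heart these receptors are found on endocardium and vessel endothelium, while the ligands VEGF-A and angiopoietin 1 come largely from the myocardium. *Cdh5* encodes VE-cadherin and *Pecam1* encodes CD31, both found at contacts between endothelial cells.

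On the mouse genome build GRCm38, *Vegfa* lies at chr17:46016993-46032377 on the - strand. *Kdr* lies at chr5:75932827-75978458 and *Flt1* at chr5:147561604-147726011, both on the - strand. *Nrp1* lies at chr8:128359073-128505462 on the + strand. *Angpt1* lies at chr15:42424727-42676977 and *Angpt2* at chr8:18690263-18741562, both on the - strand. *Tek* lies at chr4:94739289-94874976 on the + strand, and *Tie1* on the same chromosome at chr4:118471191-118490061 on the - strand. *Cdh5* lies at chr8:104101625-104144502 on the + strand, and *Pecam1* at chr11:106654217-106750628 on the - strand. The exons of *Angpt1* share 737 bases with an antisense gene, Gm17473, and those of *Nrp1* hold the 80 bases of Mir1903. The use of the strand in counting is not given in the sources used here, so reads of *Angpt1* and its antisense neighbour cannot be told apart. The exons of the other 8 genes overlap no exon of another gene in GENCODE vM21.

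The 250 bases before the start sites of *Kdr*, *Flt1*, *Tek* and *Vegfa* are shown because the levels of these receptors and their ligand are compared below. They were taken from RefSeq on GRCm38.p6, where windows were found for 6 of the 10 genes. For *Kdr*, *Flt1* and *Tek* the capitals mark GGAA or its reverse complement TTCC, the core letters of the sites bound by ETS factors, a family known to act at endothelial promoters. The *Kdr* window is chr5:75978456-75978705, the *Flt1* window chr5:147726012-147726261, both on the - strand, and the *Tek* window chr4:94739039-94739288 on the + strand.
Kdr: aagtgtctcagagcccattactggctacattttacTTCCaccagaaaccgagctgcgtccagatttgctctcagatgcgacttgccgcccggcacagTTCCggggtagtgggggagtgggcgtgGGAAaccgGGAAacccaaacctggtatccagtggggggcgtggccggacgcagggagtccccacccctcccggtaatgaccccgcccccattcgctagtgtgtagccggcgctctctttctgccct
Flt1: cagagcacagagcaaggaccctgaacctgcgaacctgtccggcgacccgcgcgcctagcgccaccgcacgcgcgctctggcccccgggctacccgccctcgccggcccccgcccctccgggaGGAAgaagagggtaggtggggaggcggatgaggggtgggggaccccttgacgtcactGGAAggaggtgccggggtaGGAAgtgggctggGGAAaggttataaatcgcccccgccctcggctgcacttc
Tek: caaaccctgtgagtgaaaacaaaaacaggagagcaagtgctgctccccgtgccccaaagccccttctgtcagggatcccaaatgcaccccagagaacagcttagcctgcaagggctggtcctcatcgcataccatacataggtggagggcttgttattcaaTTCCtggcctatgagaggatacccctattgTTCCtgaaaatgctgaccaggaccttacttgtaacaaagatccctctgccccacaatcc

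These windows held 4, 4 and 2 matches. Among all 32851 windows of the same length, 93.4% held at least 1 match and the median was 3 matches. For *Vegfa* the window is chr17:46032378-46032627 on the - strand. The capitals there mark CGTG or its reverse complement CACG, letters within the core of sites bound by hypoxia-inducible factors.
Vegfa: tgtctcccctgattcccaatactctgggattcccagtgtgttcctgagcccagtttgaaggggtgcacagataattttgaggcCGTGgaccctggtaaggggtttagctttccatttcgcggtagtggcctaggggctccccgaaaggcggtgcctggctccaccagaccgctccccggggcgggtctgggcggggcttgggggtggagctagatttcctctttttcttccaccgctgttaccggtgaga

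It held 1 match, and 55.5% of all windows held at least 1. A match is a description of letters and not of binding. The *Tie1* start of RefSeq lies 212 bases inside the gene as the deposited table places it, and its window, which held 7 matches of GGAA or TTCC, is not shown. Of all windows 8.69% held 6 or more such matches.

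Total counts on the genes of the authors' comparisons ran from 11994148 to 17483982 per library. Values within a gene are given as CPM (counts scaled to a common library total) with library sizes scaled by edgeR's TMM method, and values between genes as RPKM, which also divides by the gene length in the deposited values. *Hira*, the targeted gene, measured 78.1 ± 8.89 CPM in E11.5 controls and 64.7 ± 8.42 in E11.5 mutants (mean ± SD of 3 libraries), with 75.1 ± 13.1 and 73.7 ± 5.19 at E12.5. These counts cover the whole gene and share 2778 exonic bases with Gm28539, so they do not check the deletion. By 4 Y-linked genes, all 3 E11.5 control libraries read as male, against 1 of 3 in each other group. Whether a library holds 1 heart or several is not given in the sources used here, so hearts counted below are libraries. A library with hearts of both sexes would also read as male. The labels do not say whether both stages were processed together, so stage and processing cannot be told apart. As nothing but the embryonic hearts themselves is named as the source of the replicates, p-values measure the spread between these libraries.

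All 10 genes were measured in all 12 libraries. Over the 12, *Tie1* stood at 56.7 ± 12.3 RPKM (SD), *Pecam1* at 56.5 ± 10.6, *Cdh5* at 50.1 ± 12.6, *Tek* at 45.4 ± 6.003, *Vegfa* at 43.6 ± 9.01 and *Nrp1* at 43.3 ± 6.89. *Kdr* followed at 26.1 ± 7.75 and *Angpt1* at 20.9 ± 6.70, then *Flt1* at 8.26 ± 2.68 and *Angpt2* at 1.25 ± 0.427. Several neighbours in this order did not separate. *Tie1* was above *Pecam1* in 7 of 12 libraries, *Tek* above *Vegfa* in 7 and *Vegfa* above *Nrp1* in 6. *Nrp1* was above *Kdr*, and *Flt1* above *Angpt2*, in all 12. *Angpt2* had 14 to 73 reads per library, against at least 323 for every other gene, and is the least precisely measured of the 10.

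Hearts also express markers of endothelium outside these 10 genes. All 23 genes of a pan-endothelial list (such as *Emcn*, *Eng* and *Erg*) were detected in every group. Their summed level was 1307 to 1412 CPM in E11.5 control, 1397 to 1776 in E11.5 mutant, 1485 to 1587 in E12.5 control and 1476 to 1827 in E12.5 mutant hearts. The ranges of the genotypes overlap at both stages. In whole hearts a lower level of a gene in a cell type and fewer cells of that type cannot be told apart.

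**Figure D1:**
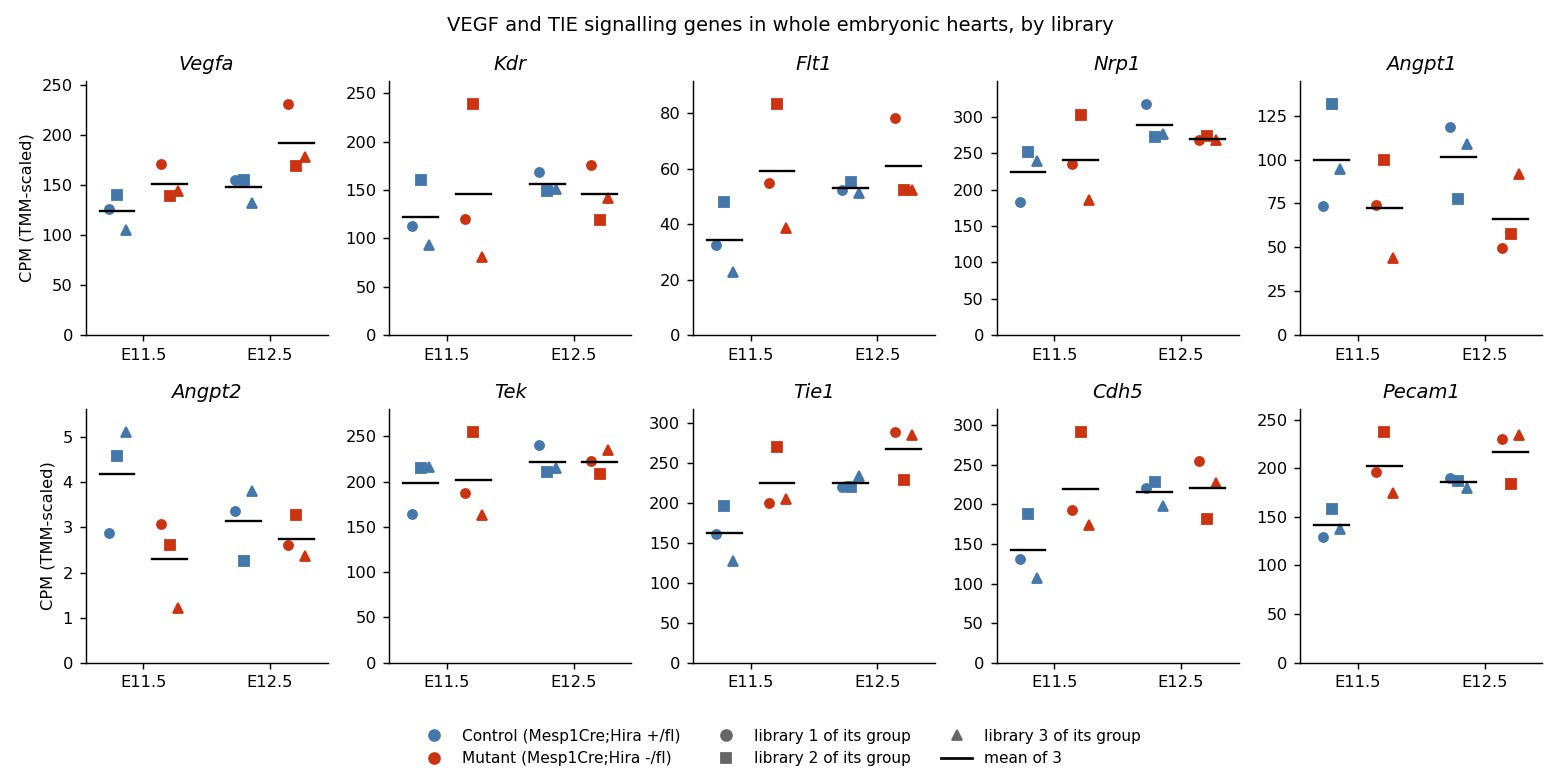
Level of each of the 10 genes in each of the 12 libraries, in TMM-scaled CPM on linear axes that start at 0. Each point is 1 library, the shape gives its number within the group, blue is control and red is mutant, and black lines are means of 3. Library 2 of the E11.5 mutants (red square) is the highest of the 6 E11.5 libraries for 7 genes.

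*Vegfa*, the ligand, had higher mean levels in mutant hearts at both stages. At E11.5 it stood at 126, 140.1 and 106 CPM in the controls, against 171, 139 and 144 in mutants. The E12.5 controls had 155, 156 and 133 CPM and the E12.5 mutants 231, 169 and 178. The groups overlapped at E11.5, where 1 mutant lay just under the highest control, and did not overlap at E12.5. The edgeR log2 fold change was 0.29 (SE 0.15, 95% interval -0.04 to 0.62) at E11.5, with an adjusted p of 0.569 in the quasi-likelihood test of edgeR. At E12.5 it was 0.40 (SE 0.12, 95% interval 0.14 to 0.65, adjusted p = 0.075), which is a fold of 1.32 and does not pass the threshold. Adjusted p-values throughout are Benjamini-Hochberg values over all genes tested in a comparison.

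*Kdr*, the main signalling receptor, differed little on average and varied most among the E11.5 mutants. Control hearts of E11.5 gave 112, 159.8 and 93.3 CPM, and mutant hearts 119.7, 239 and 80.4. At E12.5 the controls stood at 169, 149 and 151 CPM and the mutants at 175, 119 and 142. The E11.5 mutants hold both the highest and the lowest of the 12 values, and the groups overlap at both stages. Its log2 fold change was 0.27 at E11.5 (SE 0.36, 95% interval -0.55 to 1.08) and -0.09 at E12.5 (SE 0.12, 95% interval -0.35 to 0.18). A 1.5-fold higher level lies inside the E11.5 interval, so a difference of that size is not left out there.

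*Flt1*, which binds VEGF-A but signals weakly, was the VEGF receptor with the larger differences. Its E11.5 levels were 32.5, 48.1 and 22.7 CPM in controls, against 55.1, 83.4 and 38.8 in mutants. In the E12.5 controls it measured 52.3, 55.4 and 51.4 CPM, and in the mutants 78.3, 52.4 and 52.5. At E11.5 the lowest mutant lies below the highest control, and at E12.5 1 mutant is high and the other 2 lie within the range of the controls. The log2 fold change at E11.5 was 0.78 (SE 0.32, 95% interval 0.06 to 1.501, adjusted p = 0.446, edgeR), a fold of 1.72. At E12.5 it was 0.22 (SE 0.14, adjusted p = 0.414), and without the high mutant it was -0.01.

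*Nrp1*, the VEGF co-receptor, had similar levels in both genotypes. At E11.5 it stood at 183, 252 and 239.8 CPM in the controls, against 235, 303 and 186 in mutants. The E12.5 controls had 318, 273 and 276 CPM and the E12.5 mutants 268, 273 and 268. The 3 E12.5 mutants lie close together and near the lower end of the controls. The edgeR log2 fold change was 0.10 at E11.5 (95% interval -0.34 to 0.55) and -0.08 at E12.5 (95% interval -0.25 to 0.09).

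*Angpt1*, the ligand that activates TEK, had lower mean levels in mutant hearts. Control hearts of E11.5 gave 73.6, 132 and 94.4 CPM, and mutant hearts 73.9, 99.5 and 44.1. Its E12.5 levels were 119, 77.5 and 109 CPM in controls, against 49.7, 57.4 and 92.1 in mutants. The lowest value at each stage is a mutant, and the groups overlap at both. On the log2 scale the mutants differed by -0.46 (SE 0.30, adjusted p = 0.703) at E11.5 and by -0.60 (SE 0.21, 95% interval -1.06 to -0.15, adjusted p = 0.124, edgeR) at E12.5. Without library 3 of the E12.5 mutants, the highest of its group, it was -0.91 with an adjusted p of 0.0165, which would pass, as did 2.31% of all genes in that fit.

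*Angpt2*, the context-dependent antagonist, was rare in every heart. In the E11.5 controls it measured 2.88, 4.59 and 5.12 CPM, and in the mutants 3.08, 2.61 and 1.21. At E12.5 the controls stood at 3.36, 2.26 and 3.81 CPM and the mutants at 2.61, 3.27 and 2.36. The lowest of the 12 values is an E11.5 mutant, and the groups overlap at both stages. Its log2 fold change was -0.85 (SE 0.38, 95% interval -1.71 to 0.02) at E11.5 and -0.17 (SE 0.27) at E12.5.

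*Tek*, the angiopoietin receptor, had nearly equal means in both genotypes. At E11.5 it stood at 165, 215 and 216 CPM in the controls, against 188, 255 and 163 in mutants. The E12.5 controls had 241, 210.3 and 216 CPM and the E12.5 mutants 222, 209 and 235. Means were 198 ± 29.4 and 202 ± 47.7 CPM (SD, n = 3) at E11.5 and 222 ± 16.2 and 222 ± 12.9 at E12.5. The log2 fold change at E12.5 was 0.01 with a 95% interval of -0.16 to 0.19, which leaves out a 1.5-fold change in either direction.

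*Tie1*, the related receptor, had higher mean levels in mutant hearts at both stages. Control hearts of E11.5 gave 162, 197 and 128 CPM, and mutant hearts 199.95, 269.9 and 205. Its E12.5 levels were 219.7, 221 and 235 CPM in controls, against 289.6, 229 and 286 in mutants. All mutants lay above all controls at E11.5, by a narrow margin, and at E12.5 1 mutant fell within the controls. The log2 fold change in mutants was 0.47 (SE 0.19, 95% interval 0.05 to 0.89, adjusted p = 0.431) at E11.5 by edgeR and 0.27 (SE 0.093, 95% interval 0.06 to 0.47, adjusted p = 0.129) at E12.5.

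*Cdh5*, encoding VE-cadherin, had a higher mean in the mutants at E11.5 and nearly equal means at E12.5. In the E11.5 controls it measured 131, 189 and 107 CPM, and in the mutants 194, 292 and 174. At E12.5 it stood at 221, 228 and 198 CPM in the controls, against 255, 181 and 227 in mutants. At E11.5 only the lowest mutant and the highest control overlap. Its log2 fold change was 0.63 (SE 0.25, 95% interval 0.07 to 1.19, adjusted p = 0.431) at E11.5 by edgeR and 0.05 (SE 0.11, 95% interval -0.20 to 0.29) at E12.5.

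*Pecam1*, encoding CD31, had a higher mean in the mutants at both stages. The E11.5 controls had 129.7, 158 and 138 CPM and the E11.5 mutants 196, 238 and 174. Control hearts of E12.5 gave 190.2, 187 and 179 CPM, and mutant hearts 230.1, 184 and 235. All mutants lay above all controls at E11.5, and at E12.5 1 mutant fell within the controls. The log2 fold change was 0.51 (SE 0.15, 95% interval 0.18 to 0.85, adjusted p = 0.246, edgeR) at E11.5, the smallest adjusted p of the 10 genes at that stage, and 0.24 (SE 0.093, 95% interval 0.03 to 0.44, adjusted p = 0.171) at E12.5.

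A gene was called when its adjusted p was at most 0.05 and its fold change at least 1.5. By this rule 0 of the 10 genes were called between genotypes at E11.5, where 0.115% of all 12197 genes tested were called. At E12.5 again 0 of 10 were called, against 3.03% of 12256 genes. At an unadjusted p under 0.05, 4 of 10 stood out at E11.5 (*Tie1*, *Cdh5*, *Pecam1* and *Flt1*, all with higher means in mutants), against 10.3% of all genes. At E12.5 4 of 10 did so (*Vegfa*, *Tie1* and *Pecam1* with higher and *Angpt1* with lower means in mutants), against 21.3% of all genes. Genotypes did not overlap for 2 of 10 genes at E11.5, against 16.3% of all genes, and for 1 of 10 at E12.5, against 26.4%, so these 2 counts were not far from the background. With DESeq2 also 0 of 10 genes were called at either stage, against 2.03% of all genes at E11.5 and 3.56% at E12.5, although *Vegfa* at E12.5 had an adjusted p of 0.0147 at the same fold of 1.32. The median log2 fold change of the 10 genes was 0.28 at E11.5 and 0.03 at E12.5, and that of all genes tested was -0.01 and -0.0017.

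At E11.5 library 2 of the mutants was the highest of the 6 hearts for *Kdr*, *Flt1*, *Nrp1*, *Tek*, *Tie1*, *Cdh5* and *Pecam1*. Without it the log2 fold change was -0.28 for *Kdr*, -0.09 for *Nrp1* and -0.18 for *Tek*, each of the opposite sign. It was 0.45 for *Flt1*, 0.32 for *Tie1*, 0.37 for *Cdh5* and 0.39 for *Pecam1*, each lower than with it and of the same sign. Sex is unevenly spread at E11.5. With sex as a term, the fit at that stage sets the 1 male mutant library against the 3 male controls. Its values rest on that 1 library, and a role of sex cannot be told from them. The edgeR log2 fold change was then -0.60 for *Kdr*, -0.27 for *Nrp1* and -0.29 for *Tek*. In the same fit it was 0.17 for *Flt1*, 0.29 for *Cdh5* and 0.30 for *Pecam1*, all smaller than without the term, and -1.18 for *Angpt1* and -1.79 for *Angpt2*, both further from 0.

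No difference of the mutant effect between stages was detected for any of the 10 genes. The E12.5 effect less the E11.5 effect passed an adjusted p of 0.05 for 0 of 10 genes and for 0% of all 12270 genes tested, and an unadjusted p of 0.05 for 0 of 10 against 4.5% of all genes. DESeq2 also called 0 of the 10, against 0.334% of all genes. The smallest p was that of *Cdh5*, with a difference of -0.59 (SE 0.30, 95% interval -1.25 to 0.06, unadjusted p = 0.0727, adjusted p = 0.954, edgeR). The intervals reach from -1.43 for *Flt1* to 1.69 for *Angpt2*, so they do not leave out large differences for these genes.

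Because the mutant effect could be estimated over both stages together, a fit of all 12 libraries with the effect averaged over E11.5 and E12.5 was added after the single-stage values had been seen. In it 0 of 10 genes were called by adjusted p and fold change, against 3.36% of all genes. By adjusted p alone 1 of 10 passed, against 6.89% of all genes. This was *Pecam1*, which was higher in mutants with a log2 fold change of 0.37 (SE 0.091, 95% interval 0.17 to 0.56, adjusted p = 0.0283, edgeR), a fold of 1.29. *Vegfa* followed at 0.34 (SE 0.10, adjusted p = 0.0627) and *Tie1* at 0.36 (SE 0.11, adjusted p = 0.0719), just outside the threshold. *Flt1* stood at 0.49 (SE 0.20, adjusted p = 0.178) and *Angpt1* at -0.54 (SE 0.21, adjusted p = 0.172). At an unadjusted p under 0.05, 6 of 10 genes stood out, against 19.6% of all genes. The *Pecam1* value lies close to the threshold. With 1 library left out its adjusted p ran from 0.00726 to 0.0813 and passed in 4 of 12 cases (without library 2 of the E11.5 controls, 1 or 3 of the E11.5 mutants, or 2 of the E12.5 mutants), while its log2 fold change stayed between 0.30 and 0.43. With sex as a term its adjusted p was 0.0584, and with DESeq2 0.00164. By DESeq2 *Vegfa* (log2 fold change 0.35, adjusted p = 0.0157) and *Tie1* (0.37, adjusted p = 0.0171) also passed by adjusted p, both under a 1.5-fold change. With the replicate number as a block *Vegfa* passed (adjusted p = 0.0335, edgeR) and *Tie1* did not (adjusted p = 0.0765).

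**Figure D2:**
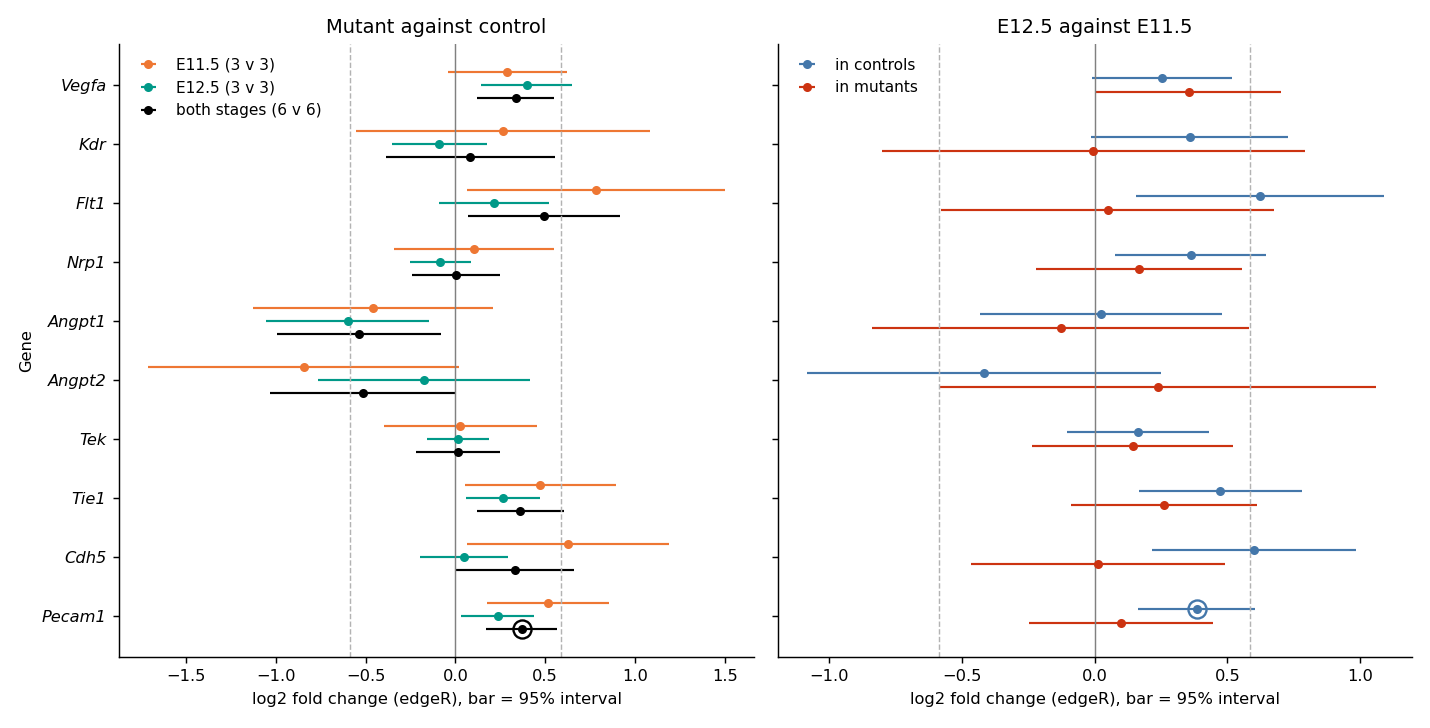
Log2 fold changes of the 10 genes with 95% intervals from edgeR, for mutant against control (left) and E12.5 against E11.5 (right). Dashed lines mark a 1.5-fold change and rings mark values that pass an adjusted p of 0.05; only *Pecam1* is ringed, over both stages (0.37) and between stages in controls (0.39).

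From E11.5 to E12.5 control hearts had higher means of 9 of the 10 genes, against 51.3% of all genes with a log2 fold change above 0. The exception was *Angpt2*, with 4.19 ± 1.17 and 3.14 ± 0.801 CPM (SD, n = 3) at the stages, which is -0.42 on the log2 scale (SE 0.30, adjusted p = 0.365, edgeR). *Pecam1* rose by an adjusted p alone, from 142 ± 14.7 to 185 ± 5.65 CPM (SD, n = 3), a log2 fold change of 0.39 (SE 0.099, 95% interval 0.16 to 0.61, adjusted p = 0.0374, edgeR). The pass of *Pecam1* was kept in 1 of 6 fits with 1 library left out, the one without library 2 of the E11.5 controls (adjusted p = 0.00669), and in the other 5 its adjusted p was 0.0668 to 0.151. *Cdh5* went from 142 ± 41.8 to 216 ± 15.3 CPM (0.60 on the log2 scale, SE 0.17, adjusted p = 0.0505) and *Tie1* from 162 ± 34.4 to 225 ± 8.22 CPM (0.47, SE 0.14, adjusted p = 0.0524). *Flt1* stood at 0.62 (SE 0.21, adjusted p = 0.0745) and *Nrp1* at 0.36 (SE 0.13, adjusted p = 0.0841). These 5 genes were also those whose stages did not overlap in controls, 5 of 10 against 37.4% of all genes. *Angpt1*, with 99.9 ± 29.4 and 102 ± 21.5 CPM, was level.

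In controls 0 of 10 genes were called between stages by adjusted p and fold change, against 5.31% of 12250 genes. By adjusted p alone 1 of 10 passed, against 11.3%, and 5 of 10 had an unadjusted p under 0.05, against 32.7%. These calls lie close to the threshold. Without library 2 of the E11.5 controls, which is the highest of its group for *Kdr*, *Flt1*, *Tie1* and *Cdh5*, all 4 of these genes were called, with log2 fold changes of 0.60, 0.94, 0.64 and 0.86, and 11.5% of all genes were called. With DESeq2 *Flt1* (adjusted p = 0.0257) and *Cdh5* (adjusted p = 0.00677) were called, 2 of 10 against 6.58% of all genes. The controls were 3 of 3 male at E11.5 and 1 of 3 at E12.5. With sex as a term, the fit sets the 1 male E12.5 control library against the 3 male E11.5 controls. It therefore rests on 1 library at E12.5, and whether the calls depend on sex cannot be told from it. The log2 fold changes in it were 0.34 for *Pecam1*, 0.49 for *Cdh5*, 0.54 for *Tie1* and 0.58 for *Flt1*. Between stages in mutants 0 of 10 genes were called, against 0.523% of 12237 genes, and only *Vegfa* had an unadjusted p under 0.05 (log2 fold change 0.35, SE 0.15, adjusted p = 0.534, edgeR), against 9.13% of all genes. DESeq2 called 0 of 10 in mutants, against 1.85% of all genes. Between stages the comparisons share the libraries of the genotype comparisons and are not independent of them.

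Ratios of 2 genes within the same library do not depend on how libraries are scaled. *Flt1* relative to *Kdr*, the weakly signalling to the strongly signalling VEGF receptor, was 0.252, 0.261 and 0.211 (ratio of RPKM) in E11.5 controls and 0.3999, 0.303 and 0.420 in E11.5 mutants. At E12.5 it was 0.269, 0.324 and 0.296 in controls and 0.388, 0.381 and 0.322 in mutants. All E11.5 mutants lay above all E11.5 controls, and at E12.5 1 mutant lay just under the highest control. The mutants were higher by 0.62 on the log2 scale at E11.5 (exact permutation test, two-sided p = 0.1) and by 0.29 at E12.5 (exact permutation p = 0.2). For 3 libraries against 3, the smallest two-sided p is 0.1.

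*Tek* relative to *Tie1*, the 2 TIE receptors, was 0.849, 0.909 and 1.41 in E11.5 controls and 0.783, 0.788 and 0.663 in E11.5 mutants. At E12.5 it was 0.913, 0.794 and 0.766 in controls and 0.640, 0.762 and 0.685 in mutants. All mutants lay below all controls at each stage, though by less than 0.01 at E12.5. The mutant log2 ratio minus that of the controls was -0.47 at E11.5 and -0.24 at E12.5, each at the smallest p the exact permutation test allows, 0.1. Library 3 of the E11.5 controls is the highest of the 12, and without it the E11.5 difference was -0.24.

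Over both stages, with genotypes exchanged within each stage, the *Flt1* to *Kdr* ratio was higher in mutants by 0.46 on the log2 scale (exact permutation test over 400 arrangements, two-sided p = 0.01). For *Tek* to *Tie1* the mutant value minus the control value was -0.36 (exact permutation p = 0.005, the smallest this test allows). Of the 5 ratios computed these 2 have an adjusted p of 0.025 (Benjamini-Hochberg over the 5, exact permutation tests). This test was chosen after the ratios had been seen and is a description to be checked in other hearts. With any 1 library left out the *Flt1* to *Kdr* difference stayed between 0.41 and 0.53 and the *Tek* to *Tie1* difference between -0.43 and -0.24. The other ratios did not separate the genotypes over both stages, with differences of -0.02 for *Angpt1* to *Angpt2* (exact permutation p = 0.94), 0.32 for *Vegfa* to *Kdr* (p = 0.245) and -0.02 for *Nrp1* to *Kdr* (p = 0.915). At E12.5 *Vegfa* to *Kdr* was 1.36 to 1.62 in controls and 1.94 to 2.19 in mutants, without overlap (difference 0.49 on the log2 scale, exact permutation p = 0.1), and at E11.5 the genotypes overlapped widely, at 1.35 to 1.75 and 0.900 to 2.77.

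**Figure D3:**
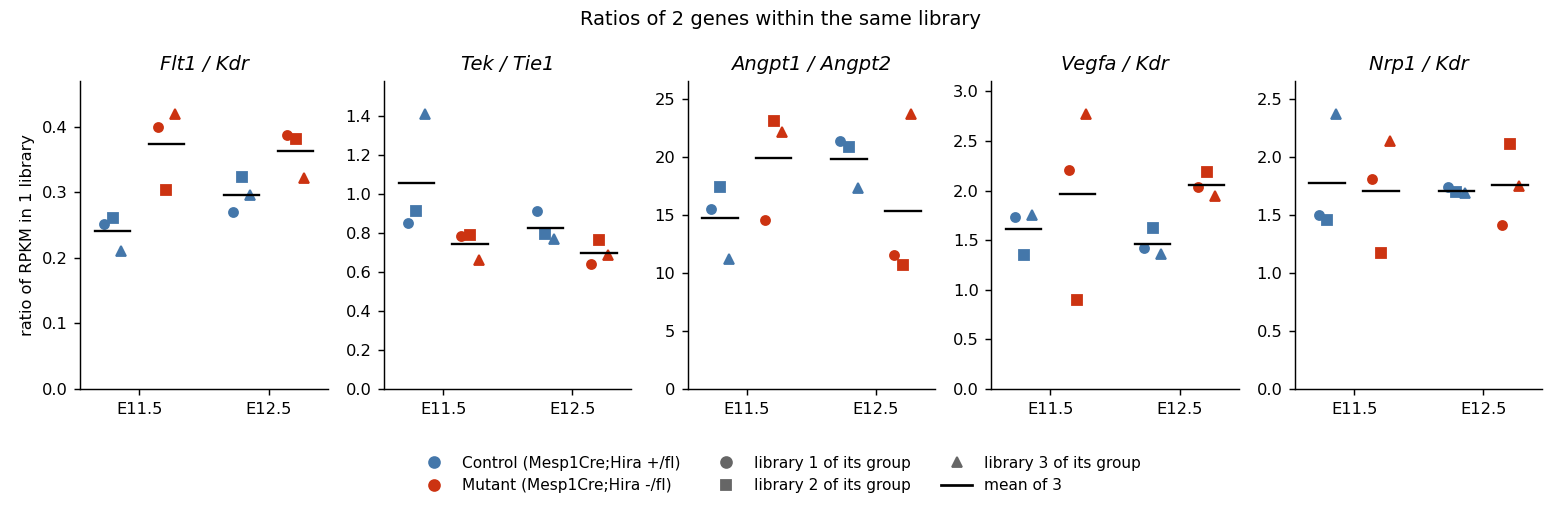
Ratio of the RPKM of 2 genes in the same library for 5 pairs, on linear axes that start at 0. Blue points are controls, red points are mutants and black lines are means of 3; the *Flt1* to *Kdr* ratio runs from 0.211 to 0.324 in controls and from 0.303 to 0.420 in mutants, and *Tek* to *Tie1* lies lower in all mutants of a stage than in its controls.

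Each gene was also set against the mean log2 CPM of the 23 pan-endothelial genes in its own library. That mean was itself higher in E11.5 mutants, by 0.20 and without overlap (exact permutation p = 0.1), and at E12.5 the difference was 0.02 with overlap. Relative to it, *Pecam1* in mutants was 0.31 higher on the log2 scale at E11.5 and 0.19 at E12.5, and *Tie1* was 0.28 and 0.22 higher. *Angpt1* relative to it was -0.70 at E11.5 and -0.67 at E12.5, mutant minus control. Over both stages, the lowest p-values of the 10 genes were 0.035 for *Angpt1*, with a difference of -0.68, and 0.04 for *Pecam1*, with 0.25 (exact permutation within stages, 10 genes tested, not adjusted). With 5 endocardial genes added to the reference, the exact permutation p was 0.03 for *Angpt1*, 0.04 for *Angpt2* and 0.055 for *Pecam1*. As 10 genes were tested and the p-values are not adjusted, no gene is taken to differ from the endothelial signal on this measure. *Kdr* was at -0.10 and *Tek* at -0.11.

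The rest of the 2 pathways was followed in lists of genes around the receptors. Of 10 genes of the VEGF list, which held other ligands, *Flt4*, *Nrp2*, *Plxnd1* and signalling adaptors, 8 were tested and 0 were called between genotypes at either stage by edgeR. At an unadjusted p under 0.05, 2 of the 8 stood out at E11.5 and 4 at E12.5, against 10.3% and 21.3% of all genes. *Nrp2*, a co-receptor for the lymphatic ligand VEGF-C, was lower in E12.5 mutants by adjusted p alone, with 39.1, 42.6 and 35.3 CPM in controls and 26.5, 23.4 and 29.97 in mutants (log2 fold change -0.54, SE 0.11, adjusted p = 0.0203). *Shb*, an adaptor of KDR, passed only over both stages (log2 fold change 0.43, SE 0.11, adjusted p = 0.0286). *Flt4*, the receptor for VEGF-C, rose between stages in controls from 24.7 ± 6.51 to 40.1 ± 3.23 CPM, by 0.70 on the log2 scale (SE 0.17, adjusted p = 0.0332, edgeR). Figf, encoding VEGF-D, is outside the authors' comparisons and was not tested.

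Of 6 genes of the TIE list, 5 were tested. *Svep1*, which encodes a large extracellular protein, stood at 21.7, 28.1 and 26.7 CPM in E11.5 controls and at 14.3, 15.2 and 7.92 in E11.5 mutants. At E12.5 it stood at 33.8, 34.6 and 35.7 CPM in controls and at 22.1, 24.8 and 27.9 in mutants, so that mutants lay below controls at each stage without overlap. It was lower in mutants at E12.5 by adjusted p alone (log2 fold change -0.46, SE 0.10, adjusted p = 0.0256) by edgeR and was called over both stages (-0.75, SE 0.13, adjusted p = 0.00561). At E11.5 it stood at -1.02 with an adjusted p of 0.164. The other 4 (*Ptprb*, *Dok2*, *Foxo1* and *Adam17*) passed in no comparison of genotypes. *Angpt4* was under the filter, at 0 to 0.66 CPM.

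Of 10 targets of hypoxia-inducible factors, a group to which *Vegfa* also belongs, 9 had higher means in mutants at E11.5 and 10 at E12.5. Log2 fold changes above 0 were found for 48.4% of all genes at E11.5 and 49.6% at E12.5. By edgeR 0 passed at E11.5, with 5 under 0.05 before adjustment, against 10.3% of all genes. At E12.5 2 of 10 were called, both higher in mutants, against 3.03% of all genes. *Slc2a1*, the glucose transporter GLUT1, stood at 349, 340.1 and 351 CPM in controls and at 520.3, 411 and 682 in mutants (log2 fold change 0.65, SE 0.14, adjusted p = 0.0258). *Adm*, encoding adrenomedullin, stood at 6.13, 5.19 and 9.53 CPM in controls and at 14.1, 9.92 and 16.2 in mutants (log2 fold change 0.96, SE 0.24, adjusted p = 0.0425). *Bnip3* passed by adjusted p alone (0.53, adjusted p = 0.0170). Over both stages *Adm* (0.75, adjusted p = 0.0242) and *Egln3* (0.61, adjusted p = 0.0168) were called, against 3.36% of all genes. The median log2 fold change of the list was 0.33 at E11.5 and 0.55 at E12.5.

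Among the 23 pan-endothelial markers, edgeR called 0 at E11.5, with 6 under 0.05 before adjustment, against 10.3% of all genes. At E12.5 1 was called as higher and 2 as lower in mutants, against 3.03% of all genes called in either direction. *Icam2* stood at 43.9, 46.0 and 45.0 CPM in controls and at 77.3, 60.9 and 71.5 in mutants (log2 fold change 0.65, adjusted p = 0.00516). *Robo4*, a vessel guidance receptor, stood at 14.1, 14.5 and 9.40 CPM in controls and at 7.23, 7.94 and 4.65 in mutants (-0.92, adjusted p = 0.0380). *Cldn5*, a tight junction gene, stood at 4.29, 6.26 and 4.92 CPM in controls and at 3.08, 2.22 and 2.09 in mutants (-1.06, adjusted p = 0.0339). Over both stages *Clec14a* was called as higher (0.72, adjusted p = 0.0197) and *Robo4* as lower (-0.97, adjusted p = 0.01) in mutants. Of all genes 3.36% were called in that fit. Of 5 endocardial markers *Tmem100* was called at E12.5 (0.75, adjusted p = 0.0356), and over both stages it and *Nfatc1* (0.60, adjusted p = 0.0116) were called. Of 4 lymphatic markers tested, *Lyve1* (-2.29, adjusted p = 0.000682) and *Reln* (-0.93, adjusted p = 0.00583) were called as lower in E12.5 mutants. By adjusted p alone 3 of the 4 passed there as lower and 1 as higher, against 5.12% of all genes in either direction. *Ccl21a* was at 0 in 3 of the 4 groups. *Lyve1* is also expressed by macrophages. Markers of endothelium were thus called in both directions. Most had log2 fold changes above 0, called or not. These were 19 of 23 pan-endothelial genes at E11.5 (median 0.21) and 16 of 23 at E12.5 (median 0.10). Of the endocardial genes 4 of 5 were above 0 at each stage (medians 0.44 and 0.30), and of the lymphatic genes 2 of 4 and 1 of 4. Of all genes 48.4% were above 0 at E11.5 and 49.6% at E12.5.

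**Figure D4:**
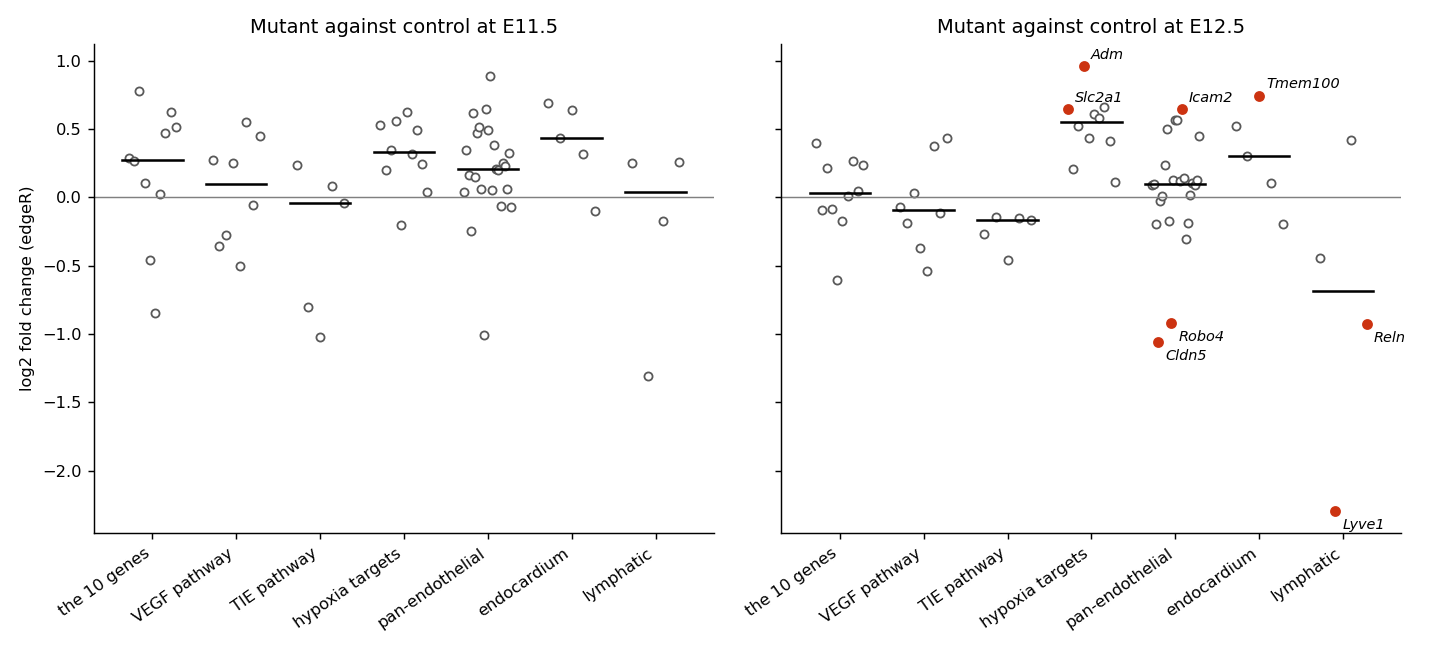
Log2 fold change of mutant against control (edgeR) at E11.5 (left) and E12.5 (right) for each gene tested of the 10 genes and of 6 lists. Each circle is 1 gene, filled and named where it was called, and black lines are medians; at E12.5 the hypoxia targets have a median of 0.55 and the 10 genes of 0.03.

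Markers of other cell types also differed between the groups. Summed macrophage markers (8 genes) stood at 33.5 to 89.1 CPM in control and 12.3 to 18.3 in mutant hearts at E11.5, and at 89.6 to 119 and 44.5 to 66.5 at E12.5. Of 6 tested, *C1qb* was called as lower in mutants at E11.5 and *Csf1r*, *Cx3cr1*, *Mrc1* and *Emr1* at E12.5. Over all genes 0.115% were called between genotypes at E11.5, 3.03% at E12.5 and 3.36% over both stages, in either direction. Summed erythroid markers (6 genes) were 4237 to 5235 and 4237 to 5472 CPM at E11.5, and 3648 to 6000.1 in control and 1952 to 2448 in mutant hearts at E12.5, where *Hbb-y*, *Hba-x*, *Hbb-bh1* and *Slc4a1* were called as lower. Summed epicardial markers (8 genes) were 559.6 to 864 CPM in control and 362 to 512 in mutant hearts at E11.5. There 6 of 8 had an unadjusted p under 0.05, against 10.3% of all genes, and 0 were called. At E12.5 the epicardial sums overlapped, and *Msln* was called as higher. Cushion mesenchyme markers (7 genes) summed to 1441 to 1793 CPM in control and 919 to 1401 in mutant hearts at E11.5. They overlapped at E12.5, where *Postn* was called as lower. Summed mural markers overlapped at E11.5. At E12.5 they stood at 1417 to 1871 CPM in control and higher, at 1924 to 2248, in mutant hearts. Of 6 mural genes tested there, 3 had log2 fold changes above 0, and *Pdgfrb* was called as lower. Over both stages *Col1a1* and *Pdgfrb*, all 6 macrophage markers tested, *Hba-x* and *Hbb-bh1* were called as lower in mutants. Of the cardiomyocyte, megakaryocyte and liver lists 0 genes were called between genotypes by edgeR at either stage. At E11.5 0, 1 and 0 of their genes had an unadjusted p under 0.05, against 10.3% of all genes. At E12.5 4, 1 and 3 did so, against 21.3% of all genes. The sums of these lists overlapped between genotypes at both stages, and *Alb* was at 0 in the E11.5 controls. The part of these cell types in the values of the 10 genes was not tested.

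The genes whose levels followed each pattern most closely over the 12 libraries were found among 11458 genes, as a description. The points share their libraries, stage and genotype. For the mean z score of *Kdr*, *Flt1*, *Tek*, *Tie1*, *Pecam1* and *Cdh5*, the highest Pearson r outside these 6 were those of *Rreb1* (0.97), *Slc7a1* (0.96), *Ankrd27* (0.96), *Rapgef5* (0.96) and *Kit* (0.96). For *Vegfa* they were *Fgf11* (0.92), *Ltbp4* (0.90) and *Cbfa2t3* (0.90). For *Nrp1* they were *Tnni3k* (0.96), *Gas2l3* (0.96) and *Larp4b* (0.95). For *Angpt1* they were *Sphkap* (0.95), *Erlin1* (0.94) and *Mef2c* (0.93), and for *Angpt2*, with its low counts, *Gulp1* (0.94), *Ergic2* (0.94) and *Ints8* (0.93).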

How the data were processed

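The authors deposited 1 table of 12 libraries whose values are named RPKM and 1 comparison of genotypes per stage. Paired-end reads were aligned by the authors with Bowtie2 (version 2) to mm10 and normalised with DESeq, per the labels and the study's methods. The counting program, annotation and strand setting are not given in the sources used here. The deposited value is a score and not RPKM, being a whole count multiplied by the gene length and a library factor. The average counts per group that the authors deposited fixed these factors. The authors made each average as the mean of 3 whole counts, so, like estimated counts, the averages need not be whole. Multiplied by 3, 100% of the averages were whole. Counts of 17827 genes were recovered within 3.93e-10 of whole numbers, and 1597 genes had none. The authors' fold changes and p-values were not used.

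Counts were tested with edgeR 4.0.16 (quasi-likelihood, TMM) in R 4.3.3 after genes whose RPKM averaged under 0.5 in the fitted libraries were left out. Each comparison used its own 6 libraries, and the difference between stages used all 12. The mean effect over both stages was added after the data had been seen. Log2 CPM used a prior count of 2. DESeq2 1.42.0 and limma 3.58.1 on log2(RPKM + 0.5) were alternatives, as were pseudocounts of 0.1 and 1, other scalings and filters, sex, the replicate number as a block and each library left out. Fits were tested on simulated data. Libraries read as male had at least 100 counts over the Y-linked genes. Counting intervals would cover counting error only, so the spread between libraries was used.

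The genes, their lists and the rule for naming genes were chosen with earlier results of these data known. All 10 genes are given with every library. Of the lists, genes called between genotypes or passing in the 2 pathway lists are named, and genes resembling a pattern are the 5 or 3 with the highest Pearson r among genes averaging at least 1 RPKM. Same-numbered libraries carry no stated pairing. Promoter windows are those of RefSeq.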

Additional observations from a re-analysis of the deposited data

How the results depend on the processing

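Over all alternatives run, 0 of the 10 genes were called for E12.5 against E11.5 in mutants and for the difference between stages, and in the other comparisons the count stayed at 0 except as follows. With the replicate block 2 genes were called at E11.5 (*Flt1*, adjusted p = 0.0343, and *Cdh5*, adjusted p = 0.0469, edgeR), 1 at E12.5 (*Angpt1*, log2 fold change -0.62, adjusted p = 0.0269) and 2 between stages in controls, where calls over all genes went from 14 to 96, 371 to 445 and 650 to 755. The numbers are not a stated pairing. Deviations from the group means of same-numbered libraries correlated at 0.0038 to 0.401 at E11.5 and 0.0274 to 0.0623 at E12.5. At these stages 4 and 5 of 6 libraries correlated best with their own number. With 3 libraries per group the deviations sum to 0, so these matches are not independent and no pairing is inferred from them. Between stages in controls DESeq2 and no filter on low values gave 2 genes each, a mean RPKM of at least 5 gave 1 and no fold threshold gave 1, against 6.58%, 4.98%, 4.5% and 11.3% of all genes. Over both stages no fold threshold gave 1. With 1 library left out the counts ran from 0 to 1 at E12.5, 0 to 4 between stages in controls and 0 to 1 over both stages (*Flt1*, log2 fold change 0.61, without library 3 of the E11.5 mutants, where 3.46% of all genes were called).

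Signs changed for small differences. With sex as a term *Kdr* stood at -0.60, *Nrp1* at -0.27 and *Tek* at -0.29 at E11.5, where that fit rests on the 1 male mutant library. Over both stages with that term *Nrp1* stood at -0.071 and *Tek* at -0.045. *Tek* at E12.5 was -0.00076 with all 12 libraries in 1 fit, and *Nrp1* over both stages was -0.0036 with the replicate block and -0.0030 with limma at pseudocounts of 0.1, 0.5 and 1. With 1 library left out the log2 fold change at E11.5 ran from -0.28 to 0.56 for *Kdr*, -0.093 to 0.26 for *Nrp1* and -0.18 to 0.16 for *Tek*. At E12.5 it ran from -0.25 to 0.034 for *Kdr*, -0.011 to 0.31 for *Flt1*, -0.034 to 0.073 for *Tek* and -0.075 to 0.17 for *Cdh5*. Between stages in controls *Angpt1* ran from -0.15 to 0.28, and over both stages *Kdr* ran from -0.19 to 0.24, *Nrp1* from -0.096 to 0.091 and *Tek* from -0.089 to 0.089. The log2 ratio of *Vegfa* to *Kdr* at E11.5, mutant minus control, ran from -0.18 to 0.63, and that of *Nrp1* to *Kdr* from -0.25 to 0.19 at E11.5 and -0.12 to 0.17 at E12.5. The cause of these changes was not tested.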
